A study of Mus musculus with 9 samples.

Results

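Expression of the eosinophil-associated ribonuclease family and its close relatives was described in sorted lung macrophages of the mouse. The 6 genes were Ear1, Ear2, Ear6, Ear10, Rnase4 and Ang, taken by their symbols from the 24346 gene symbols of the deposited files. They were picked as a family with their levels in these samples in view, so the levels of the 6 genes and the differences between groups are given as a description, without a test. All 6 passed the filter on low values (at least 1 FPKM in at least 3 of the 9 samples), which 10686 genes passed.

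The samples came from female C57BL/6 mice, a wild-type inbred strain, at postnatal week 10. Lewis lung carcinoma cells, a mouse lung cancer line of the same strain that here carried the red fluorescent protein tdTomato, were injected into the left lung of the tumor-bearing mice, and control mice received vehicle. Cells were sorted from digested, unperfused lungs as CD45+ autofluorescent cells. Ctrl-AM were the Siglec-F+ F4/80+ alveolar macrophages (AMs) of control mice, and Tumor-AM were the same gate in tumor-bearing mice. Tumor-macrophage were the Siglec-F- tumor-associated macrophages (TAMs) of tumor-bearing mice. The study shows both of these gates in tumor-bearing lungs, and which samples share a mouse is not stated. Each group held 3 samples, described by the study as 3 mice, and no allele distinguished them. The carcinoma cells were injected in saline (PBS) with the gel Matrigel, whereas the study describes the controls as mice with PBS. Whether the vehicle held Matrigel is not stated, so effects of Matrigel and of the tumor cannot be told apart. One carcinoma line stands for lung cancer here, and control and tumor-bearing mice were bred separately, so that effects of breeding and of the tumor cannot be told apart.

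Members of the ribonuclease A superfamily are small, secreted enzymes that cut RNA and are held together by disulfide bonds. The Ear genes are a rodent branch that multiplied by duplication and are the counterparts of the human eosinophil cationic protein and eosinophil-derived neurotoxin. They were named after eosinophil granules, but Ear1 and Ear2 are also well-known transcripts of resident alveolar macrophages. RNase 4 and angiogenin are widely expressed relatives. Angiogenin is known for promoting the growth of blood vessels and for cutting tRNA under stress, and Plexin-B2 is its receptor. The ribonuclease inhibitor Rnh1 binds enzymes of this superfamily in the cytosol.

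All 6 genes lie on chromosome 14, in 3 places (genome build GRCm38, which is mm10; GENCODE vM21). Ear1 (ENSMUSG00000072601, - strand), Ear10 (ENSMUSG00000090166, - strand) and Ear2 (ENSMUSG00000072596, + strand) share 1 cluster of 285 kb at chr14:43818765-44103534. Rnase4 (ENSMUSG00000021876) and Ang (ENSMUSG00000072115) overlap on the + strand at chr14:51091077-51106151. Ear6 (ENSMUSG00000062148, + strand) stands alone at chr14:51853699-51854643. In their spliced transcripts of 2 exons the coding sequence lies wholly in the second exon, and the first exon is untranslated. Rnase4 and Ang share the sequence of their first exons: exon 1 of Rnase4-201 (chr14:51091077-51091253) contains exon 1 of Ang-202 (chr14:51091150-51091253), and the same holds for Ang-201 and Rnase4-202 at a second start. A read that lies wholly in the shared part of these exons cannot be given to 1 of the 2 genes.

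The first 75 coding bases, the length of 1 read, show how nearly alike the Ear genes are. Capitals mark bases that differ from Ear2. The stretches lie in exon 2 at chr14:44102887-44102961 (Ear2, + strand), chr14:43819335-43819409 (Ear1, - strand), chr14:43923294-43923368 (Ear10, - strand, exon 1 of its single-exon transcript) and chr14:51853998-51854072 (Ear6, + strand), and are given 5′ to 3′ from the GENCODE vM21 transcripts.
Ear2: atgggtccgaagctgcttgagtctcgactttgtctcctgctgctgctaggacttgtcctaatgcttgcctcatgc
Ear1: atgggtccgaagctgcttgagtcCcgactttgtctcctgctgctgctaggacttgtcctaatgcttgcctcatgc
Ear10: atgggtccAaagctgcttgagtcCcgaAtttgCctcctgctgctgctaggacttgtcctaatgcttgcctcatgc
Ear6: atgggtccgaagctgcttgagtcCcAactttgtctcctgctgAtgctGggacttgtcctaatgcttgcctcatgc

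Ear1 differed from Ear2 at 1 of these positions, and Ear10 and Ear6 at 4 each. Over the whole coding sequence (468 or 471 bases), Ear2 was 97.0% identical to Ear10, 95.1% to Ear1 and 87.7% to Ear6. Rnase4 and Ang were 53.9% identical to each other and between 44.1% and 50.1% to the 4 Ear genes.

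Consequently, reads of 75 bases separate some members poorly. Of the 75-base windows of Ear1 transcripts, 39.3% also occurred, letter for letter, in a transcript of another gene. The corresponding share was 32.5% for Ear10 and 23.4% for Ear2. No window of Ear6 was shared (0 of 932). Rnase4 (4.67%) and Ang (8.16%) shared mainly their common first exons. When up to 2 mismatches were allowed within the family, as an aligner might, the shares rose to 89.4% for Ear1, 84.2% for Ear2 and 69.2% for Ear10, and to 3.00% for Ear6. The partners of Ear1 then included Ear2 (56.7% of its windows) and the pseudogene Ear-ps9 (47.1%). How the authors treated reads that fit several genes was not stated, so the split between Ear1, Ear2 and Ear10 is uncertain. Their sum is free of the split among them but not of reads shared with Ear-ps9 and Ear-ps2, which held 31.3% and 6.57% of the exact windows of Ear1. Ear3 and Ear7, which the files also list, had no sequence in the reference used here, and their overlap with the members was not analysed.

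**Figure D1:**
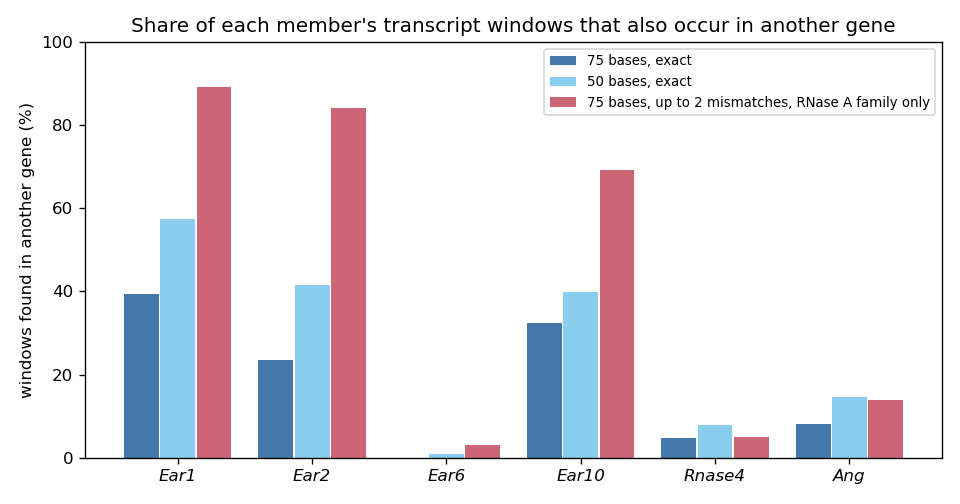
Share (%) of each member's transcript windows that also occur in another gene, for exact windows of 75 bases, exact windows of 50 bases, and 75-base windows with up to 2 mismatches within the ribonuclease A family. Ear1, Ear2 and Ear10 stand between 23.4% and 89.4%, whereas Ear6 stays at or below 3.00%.

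Ear1 and Ear2 were the abundant members in alveolar macrophages, and in TAMs Ear1 was near 0 and Ear2 at a low level. Ear2 encodes a ribonuclease of the eosinophil cationic protein type. Its FPKM (reads divided by transcript length and by the mapped reads of the sample) was 3693, 4009 and 3846 in the 3 Ctrl-AM samples. The Tumor-AM samples had 3142, 2540 and 2591, and the Tumor-macrophage samples 21.1, 8.59 and 32.6. By mean FPKM, Ear2 ranked 12th of the 24346 genes in Ctrl-AM and 20th in Tumor-AM, but 3423rd in Tumor-macrophage. The 3 groups did not overlap. The mean of Tumor-AM was 28.4% below that of Ctrl-AM, and the mean of Tumor-macrophage was 133-fold below Tumor-AM and 186-fold below Ctrl-AM.

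Ear1, a close copy of Ear2, ran in parallel. Its FPKM was 1532, 1745 and 1630 across the Ctrl-AM samples, 1168, 1021 and 1081 across Tumor-AM, and 0.711, 0 and 2.06 across Tumor-macrophage. Again the groups did not overlap, and 1 TAM sample was listed at 0. The mean of Tumor-AM was 33.4% below that of Ctrl-AM. Its rank went from 32nd in Ctrl-AM to 61st in Tumor-AM and 10329th in Tumor-macrophage.

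Ear6 and Ear10 were minor members, and they did not share the lower level of Ear1 and Ear2 in Tumor-AM. Ear6 had an FPKM of 12.04, 8.10 and 6.48 across the Ctrl-AM samples, 9.27, 16.9 and 11.99 across Tumor-AM, and at most 0.00000272 across Tumor-macrophage, with 2 samples listed at 0. Ear10 was listed at 0.310, 1.09 and 0.271 FPKM in the control AMs, at 1.32, 0.303 and 1.94 in the Tumor-AM samples, and at 0 in all 3 Tumor-macrophage samples. For both genes Ctrl-AM and Tumor-AM overlapped. Ear10 passed the filter only through 1 Ctrl-AM and 2 Tumor-AM samples above 1 FPKM, and Ear6 only through the 6 AM samples, so that a difference from TAMs was built into the filter for both. The level of Ear10 is below 0.1% of that of Ear2, with which Ear10 shares 19.7% of its exact windows.

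**Figure D2:**
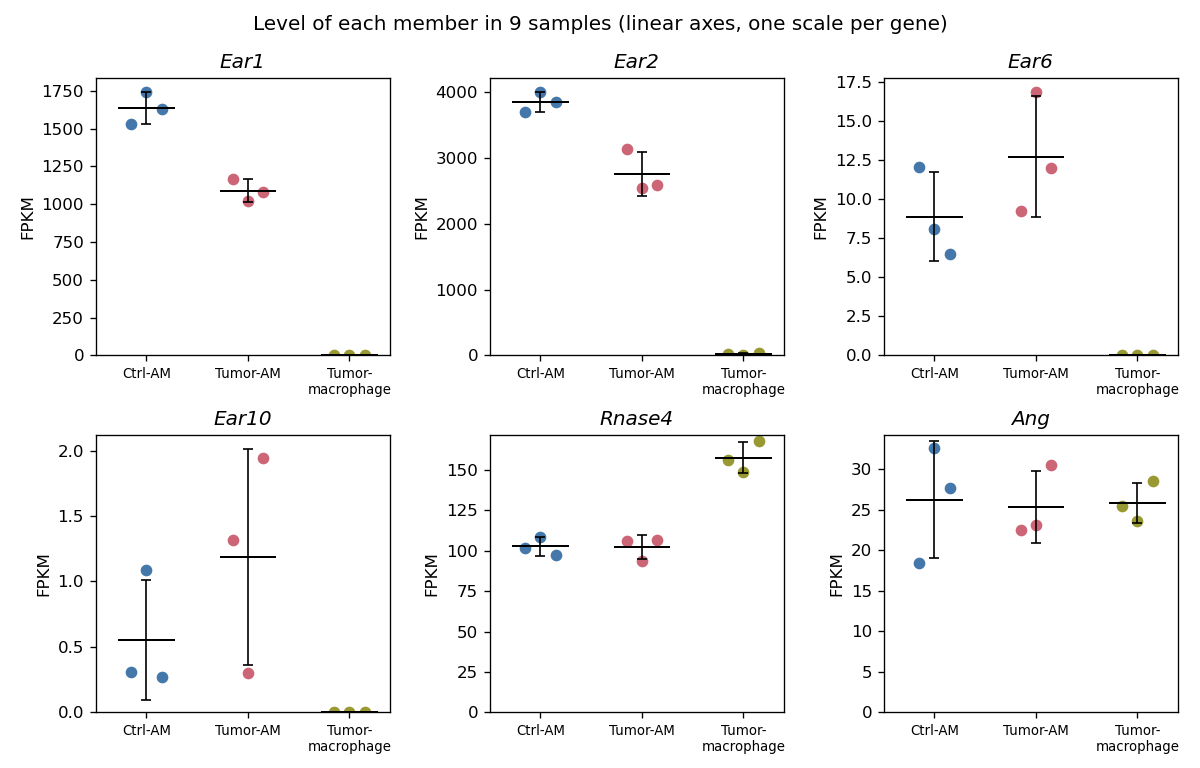
FPKM of the 6 members in each of the 9 samples (points), with the mean (wide line) and SD (bars, n = 3), on linear axes that differ between genes. Ear1 and Ear2 were lower in every Tumor-AM sample than in every Ctrl-AM sample and at most 2.06 and 32.6 FPKM in Tumor-macrophage, whereas Rnase4 was highest in Tumor-macrophage and Ang overlapped in all groups.

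On the scale of log2(FPKM + 1), with the standard error (SE) of a fit over all genes and samples, the difference Tumor-AM minus Ctrl-AM was -0.59 ± 0.30 for Ear1 and -0.49 ± 0.34 for Ear2. Those errors are shared with the low and scattered Tumor-macrophage values. With the 2 AM groups fitted alone, the same differences had SEs of 0.079 and 0.098. The difference was 0.48 ± 0.23 for Ear6 and 0.45 ± 0.28 for Ear10. These differences moved with single samples. That of Ear6 was 0.26 without the second Tumor-AM sample and 0.29 without the third Ctrl-AM sample. That of Ear10 was 0.20 without the third Tumor-AM sample and 0.79 without the second, 0.68 without the second Ctrl-AM sample, and 0.90 with a pseudocount of 0.1. Against Tumor-AM, the difference of Tumor-macrophage was -9.29 ± 0.30 for Ear1, -7.16 ± 0.34 for Ear2, -3.74 ± 0.23 for Ear6 and -1.05 ± 0.28 for Ear10. Since low genes are compressed by the pseudocount of 1, the differences of Ear6 and Ear10 cannot be larger than their low levels allow.

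Summed over the 4 Ear genes, which sets aside the split among these 4 but not reads shared with other copies or pseudogenes, FPKM was 5237, 5763 and 5482 across the Ctrl-AM samples, 4321, 3578 and 3686 across Tumor-AM, and 21.8, 8.59 and 34.6 across Tumor-macrophage. The group means were 5494 ± 263, 3862 ± 401 and 21.7 ± 13.0 (SD, n = 3). No sample of one group reached into another. The summed level in Tumor-AM was 29.7% below that in Ctrl-AM, and the summed level in Tumor-macrophage was 178-fold below Tumor-AM and 254-fold below Ctrl-AM. As a share of all FPKM, the sum stood at 0.844% for Ctrl-AM, 0.540% for Tumor-AM and 0.0028% for Tumor-macrophage. With all 8 Ear symbols of the files in the sum, Tumor-AM stood at 4398 ± 568 and Ctrl-AM at 6097 ± 320 FPKM.

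The makeup of the sum was similar in the AM groups. Ear2 contributed 70.1% ± 0.484 of it for Ctrl-AM and 71.3% ± 1.24 for Tumor-AM (SD, n = 3), and the ranges overlapped. Ear1 contributed 29.8% ± 0.518 and 28.3% ± 1.16. In Tumor-macrophage Ear2 made up at least 94.0% of the residual sum in each sample. Ear1 amounted to 42.5% of the Ear2 level in Ctrl-AM and 39.7% in Tumor-AM, but to between 0% and 6.33% in Tumor-macrophage. Given the shared windows, this shift in TAMs rests on values of Ear1 of 2.06 FPKM or less.

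The remaining Ear signal in TAMs was set beside alveolar macrophage genes. Siglecf, which encodes the surface lectin used for the sort, had an FPKM of 202, 209 and 193 across the Ctrl-AM samples, 183, 167 and 164 across Tumor-AM, and 0.663, 0.456 and 0.835 across Tumor-macrophage. The Ear sum per unit of Siglecf was 27.3 ± 1.26 in Ctrl-AM and 22.5 ± 1.11 in Tumor-AM, without overlap. In Tumor-macrophage it was 32.9, 18.8 and 41.5, a range that spans both AM groups. Siglecf was the gene sorted against, at 0.835 FPKM or less there, and other AM markers had other proportions. Mean FPKM in Tumor-AM and Tumor-macrophage was 240 and 0.197 for Cidec and 238 and 0.194 for Krt79. It was 1521 and 7.29 for Plet1, and 161.5 and 6.61 for Marco. The summed level of 12 AM markers ran from 288 to 599 FPKM in Tumor-macrophage, against at least 23995 in the AM samples, and all 12 were lower there than in Tumor-AM (limma, where 24.4% of all genes passed in that direction), although 3 of them, Siglecf included, passed the filter through AM samples alone. The list of 12 was chosen with earlier results of these data known, so its count is a description. None of the 12 markers was at 0 in all TAM samples, though Cidec was at 0 in 2 of them. The part of carried-over AMs or their RNA in the Ear values of TAMs was not tested.

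The Ear sum in Tumor-AM was likewise set beside markers of monocyte-derived macrophages, which summed to between 24.9 and 31.0 FPKM in Ctrl-AM, between 75.3 and 134.8 in Tumor-AM and between 14292 and 14735 in Tumor-macrophage. Of these 8 markers, 7 passed the test (limma) with Tumor-AM above Ctrl-AM, against 7.11% of all genes. Of the 12 AM markers, 3 passed with Tumor-AM below Ctrl-AM, against 3.18% of all genes, and none above. Both lists were chosen with earlier results of these data known, so these counts are a description. The summed levels of 8 lung epithelial markers were 129 to 266 FPKM in control AMs, 61.6 to 115 in Tumor-AM samples and 20.7 to 75.1 in TAM samples. The highest sums rested largely on Scgb1a1, at 168.5 FPKM in the first Ctrl-AM sample and 53.2 in the first Tumor-AM sample. Scgb1a1 was far lower in the other AM samples. Neutrophil markers summed to between 95.8 and 214 FPKM over all samples, and B and T cell markers to at most 16.2 FPKM in AM samples against 31.7 to 64.1 in TAM samples. Below Ctrl-AM in Tumor-AM were 1 of 7 epithelial, 2 of 6 neutrophil and 1 of 7 B and T cell markers tested, and none of them was above. With no filter on low values, Epcam was the only epithelial marker called (limma, adjusted p = 0.0211). Its mean FPKM was 55.2 in Ctrl-AM and 10.5 in Tumor-AM. The mean in Ctrl-AM was 21.4 for Cdh1, 46.4 for Sftpc and 58.6 for Scgb1a1. For Sftpb it was 0.696, and for Sftpa1, Sftpd and Ager 2.57, 1.98 and 2.14. Whether Epcam and Cdh1 came from AMs themselves or from epithelial cells was not tested. The surfactant gene Sftpc did not pass (limma with no filter, adjusted p = 0.814). Without the filter, no neutrophil and no B or T cell marker was called, while 772 of all 18402 genes were. The part of any of these cells in the lower Ear level of Tumor-AM was not tested. In such bulk samples, fewer cells that express a gene and less RNA of it per cell cannot be told apart. The paper's single-cell data, not analysed here, include an Ear1-high AM cluster made up of cells from both conditions. From RNA velocity the paper infers that a cluster found mainly in tumor-bearing mice was derived from it.

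Eosinophils also carry Siglec-F, so their own genes were examined. Of 8 eosinophil markers, none passed the filter on low values, and Epx (eosinophil peroxidase) and Gata1, which is needed for the lineage, were at 0 in all 9 samples. The summed level of the 8 genes was 0.102 to 0.161 FPKM among Ctrl-AM samples, 0.0218 to 0.370 among Tumor-AM and 0.913 to 3.18 among Tumor-macrophage. These sums lie near the floor, and the part of eosinophils in the Ear values was not tested. In 1 TAM sample Prg2 (major basic protein) and Alox15 reached 1.14 and 1.60 FPKM.

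**Figure D3:**
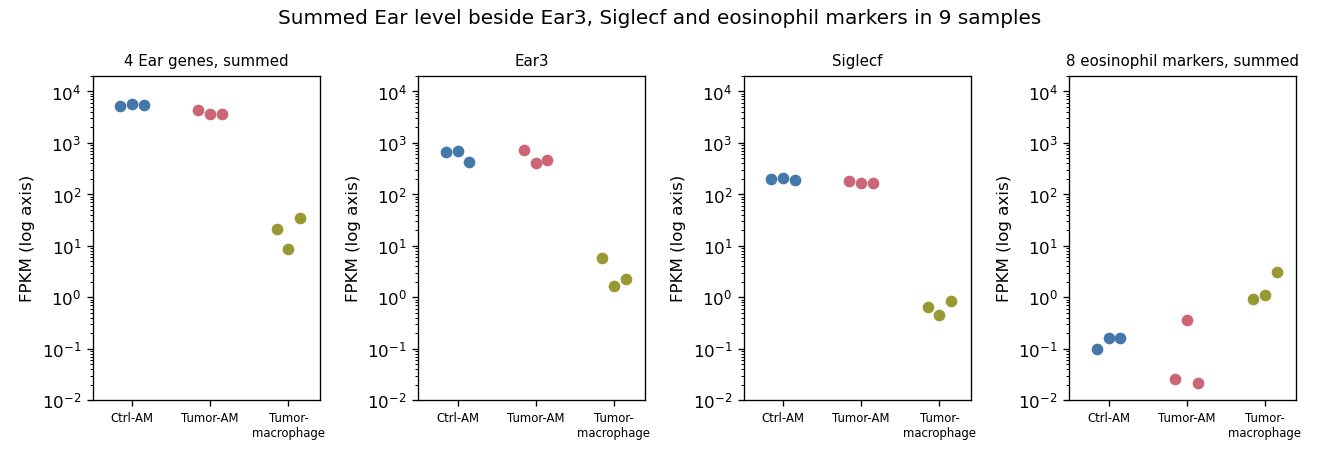
FPKM per sample, on log axes, of the 4 Ear genes summed, of Ear3, of Siglecf and of 8 eosinophil markers summed. The Ear sum, Ear3 and Siglecf were all far lower in Tumor-macrophage, while the eosinophil markers stayed at or below 3.18 FPKM in every sample.

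The 2 relatives outside the Ear branch followed other patterns. Rnase4 had an FPKM of 101.7, 108.8 and 97.6 across the Ctrl-AM samples, 105.9, 93.6 and 106.8 across Tumor-AM, and 156.3, 148.5 and 167.6 across Tumor-macrophage. Both AM groups overlapped, and every TAM sample lay above every AM sample. The mean of Tumor-macrophage was 1.54-fold that of Tumor-AM and 1.53-fold that of Ctrl-AM, a difference of 0.62 ± 0.079 and 0.61 ± 0.079 on the log2(FPKM + 1) scale. Between Tumor-AM and Ctrl-AM the difference was -0.01 ± 0.079.

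Ang, which encodes angiogenin, had an FPKM of 18.4, 32.6 and 27.7 across the Ctrl-AM samples, 22.5, 23.1 and 30.5 across Tumor-AM, and 25.5, 23.6 and 28.5 across Tumor-macrophage. All 3 groups overlapped, and their means were 26.2 ± 7.21, 25.4 ± 4.43 and 25.9 ± 2.497 (SD, n = 3). The differences between groups lay between -0.02 and 0.04, each with an SE of 0.19, and their signs changed with the scaling or the sample left out. Ang stood at 25.5% ± 6.44 of the Rnase4 level for Ctrl-AM, 24.8% ± 3.65 for Tumor-AM and 16.4% ± 0.576 for Tumor-macrophage, where all 3 samples lay below all 6 AM samples. Because the genes share first exons, their sum is also given. It was 128.9 ± 11.1 FPKM for Ctrl-AM, 127.5 ± 10.3 for Tumor-AM and 183.3 ± 12.1 for Tumor-macrophage.

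The makeup of the family thus differed between the populations. The 6 members summed to mean levels of 5623, 3989 and 205.0 FPKM in the order Ctrl-AM, Tumor-AM, Tumor-macrophage. In the AM groups nearly all of this was Ear2 and Ear1, whereas in TAMs Rnase4 alone stood at 157.5 FPKM. Rnase4 ranked 639th of all genes in Tumor-macrophage, against 910th in Ctrl-AM and 963rd in Tumor-AM.

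Counts of members must be read beside those of all genes, and, since the members were picked on these levels, nothing is read from them. Between Tumor-AM and Ctrl-AM, 2 of the 6 members (Ear1 and Ear2, both lower in Tumor-AM) had groups that did not overlap, while 32.3% of all genes tested did so in either direction, 13.4% with Tumor-AM lower and 18.9% with Tumor-AM higher. Between Tumor-macrophage and Tumor-AM, 5 members did not overlap (4 lower in TAMs and Rnase4 higher), against 55.3% of all genes (27.8% lower and 27.6% higher in TAMs). Between Tumor-macrophage and Ctrl-AM the same 5 did not overlap, against 62.3% (31.1% in each direction). These comparisons share samples and are not independent. The median difference of all genes tested was 0.014, 0.0012 and -0.0082 in the 3 comparisons in this order.

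Genes of the ribonuclease A family outside the members were tested with limma over all 10686 genes, with Benjamini-Hochberg adjustment. Of 25 names searched, 18 were in the files, 10 of these were at 0 in all samples, and 5 passed the filter, namely Ear3, Ear7, Rnase2a, Rnase2b and Rnase6. Between Tumor-AM and Ctrl-AM, where 10.3% of all genes passed the test, none of the 5 did (1 had an unadjusted p under 0.05). Between Tumor-macrophage and Tumor-AM, where 48.6% passed and 24.4% were lower in TAMs, 4 of the 5 were lower. Ear7, Rnase2a and Rnase2b passed the filter through AM samples alone, so a difference from TAMs was partly built into it, and their comparison with TAMs is taken from the fit without a filter. The same 4 lay lower in TAMs than in control AMs, where 54.8% of all genes passed and 27.1% were lower. The median difference of the 5 genes was -0.05, -2.34 and -2.52 in the 3 comparisons.

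Ear3, another Ear copy, was the third abundant one. Its FPKM was 665.3, 694.8 and 432.3 across the Ctrl-AM samples, 724.0, 407.9 and 461.3 across Tumor-AM, and 5.73, 1.70 and 2.30 across Tumor-macrophage. It fell by 7.04 ± 0.33 on the log2(FPKM + 1) scale between Tumor-AM and Tumor-macrophage (limma, adjusted p = 4.22e-08). Between Ctrl-AM and Tumor-AM its groups overlapped, with a difference of -0.18 ± 0.33 (adjusted p = 0.790). Ear7 was low in both AM groups, at 5.70 ± 2.15 and 5.16 ± 3.35 FPKM, and at 0.103 ± 0.178 in Tumor-macrophage, with a difference from Tumor-AM of -2.34 (limma with no filter, adjusted p = 0.00244).

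Rnase2b, listed in RefSeq with Ear5 as a synonym, had an FPKM of 7.83, 6.99 and 5.05 across the Ctrl-AM samples, 7.37, 16.6 and 13.4 across Tumor-AM, and 0.489, 0.318 and 0.145 across Tumor-macrophage. The difference of Tumor-AM from Ctrl-AM was 0.77 ± 0.25 and missed the threshold (limma, adjusted p = 0.0854). Without the first Tumor-AM sample it was 1.08 and passed (limma, adjusted p = 0.0111). Like Ear6, it thus had its higher mean among Tumor-AM samples, with overlapping groups, unlike Ear1 and Ear2. Rnase2b fell by 3.30 between Tumor-AM and Tumor-macrophage (limma with no filter, adjusted p = 3.21e-05). Rnase2a, its nearest relative among the genes compared with 83.8% coding identity, stayed below 3 FPKM, and its difference between Tumor-macrophage and Tumor-AM did not pass (limma with no filter, adjusted p = 0.339).

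Rnase6, known as an antimicrobial ribonuclease of myeloid cells, is not an Ear gene and had 52.4% coding identity with Ear1. Its FPKM was 62.5, 73.4 and 58.3 across the Ctrl-AM samples, 63.1, 76.9 and 64.0 across Tumor-AM, and 19.5, 14.3 and 12.3 across Tumor-macrophage. It fell by 2.09 ± 0.15 between Tumor-AM and Tumor-macrophage (limma, adjusted p = 1.07e-06), in the direction of the Ear genes and against that of Rnase4. Between the AM groups the difference was 0.07 ± 0.15 (adjusted p = 0.830).

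**Figure D4:**
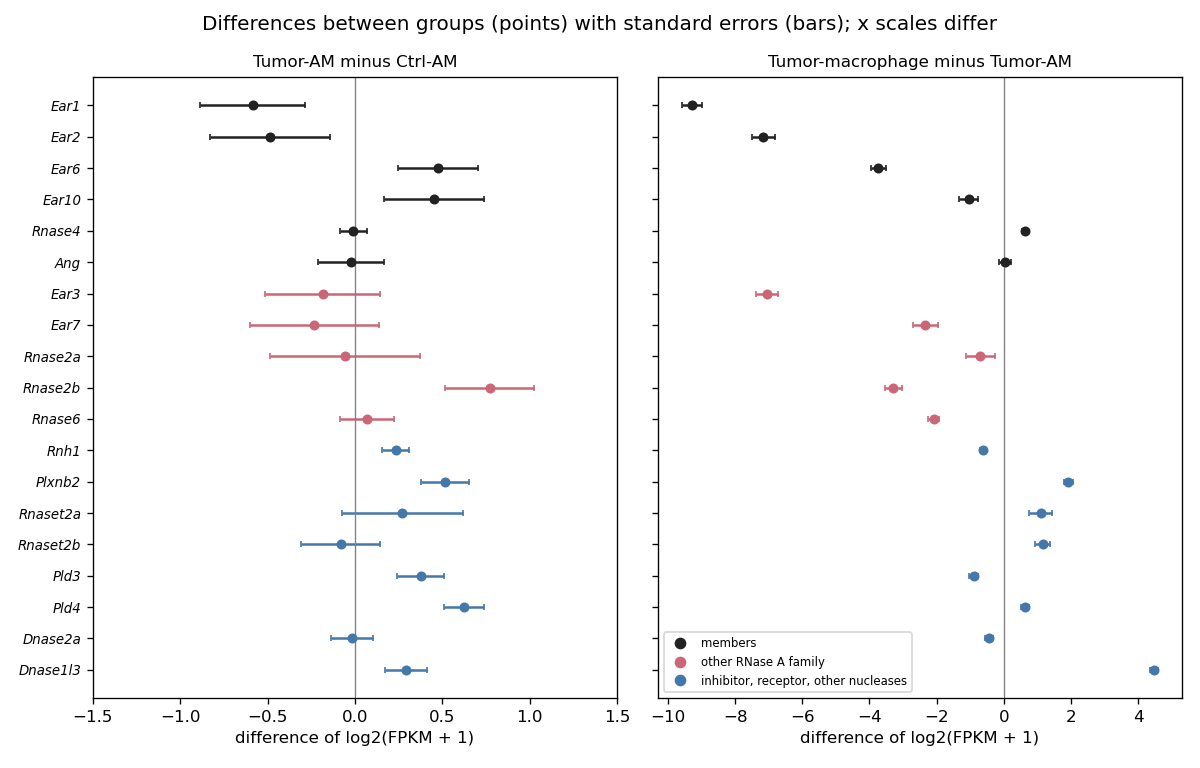
Differences of log2(FPKM + 1) between groups (points) with the SE of the fit over all genes (bars), for the 6 members, 5 other ribonuclease A family genes, and the inhibitor, receptor and other nucleases. Horizontal scales differ: Tumor-AM minus Ctrl-AM runs from -0.59 (Ear1) to 0.77 (Rnase2b), and Tumor-macrophage minus Tumor-AM from -9.29 (Ear1) to 4.48 (Dnase1l3).

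The inhibitor, the receptor and 6 other nucleases were tested as partners of the family, a list chosen with earlier results of these data known. Of the 8 genes, 2 passed with Tumor-AM above Ctrl-AM, a direction that 7.11% of all genes took, and none passed below. Between Tumor-macrophage and Tumor-AM 5 were higher and 3 lower, against 24.2% and 24.4% of all genes. The counts were also 5 and 3 between Tumor-macrophage and Ctrl-AM, against 27.7% and 27.1%. Rnh1 was abundant in every sample, at 457 ± 23.4 FPKM for Ctrl-AM, 538 ± 47.1 for Tumor-AM and 348 ± 17.4 for Tumor-macrophage. Rnh1 fell by 0.63 ± 0.080 between Tumor-AM and Tumor-macrophage (limma, adjusted p = 7.92e-05), and its difference between the AM groups, 0.23 ± 0.080, did not pass (adjusted p = 0.0989).

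Plxnb2, the receptor of angiogenin, had an FPKM of 4.12, 5.57 and 5.41 across the Ctrl-AM samples, 7.17, 7.57 and 8.01 across Tumor-AM, and 37.0, 26.8 and 31.2 across Tumor-macrophage. While Ang itself was level, Plxnb2 rose in Tumor-macrophage over Tumor-AM by 1.92 ± 0.14 (limma, adjusted p = 8.54e-07). The difference of Tumor-AM from Ctrl-AM was 0.52 ± 0.14 and only just passed (limma, adjusted p = 0.0395). It lost its call in 11 of 16 other settings, with adjusted p between 0.0268 and 0.141.

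Pld4, an endosomal nuclease that degrades single-stranded nucleic acid, rose along both steps. It had 247 ± 22.2 FPKM for Ctrl-AM, 383 ± 52.7 for Tumor-AM and 588 ± 56.1 for Tumor-macrophage, a difference of 0.62 ± 0.11 for each step (limma, adjusted p = 0.00719 and 0.000981). Its relative Pld3 had 741 ± 35.3, 964 ± 82.9 and 525 ± 107 FPKM. Pld3 fell by 0.89 ± 0.14 between Tumor-AM and Tumor-macrophage (limma, adjusted p = 0.000274), and its difference between the AM groups did not pass (adjusted p = 0.113). Dnase1l3, a secreted DNase of macrophages and dendritic cells, was below 0.4 FPKM in every AM sample and at 25.9, 27.8 and 29.0 in Tumor-macrophage, higher than Tumor-AM by 4.48. It passed the filter through TAM samples alone, so the difference was partly built into it, and with no filter its adjusted p (limma) was 5.67e-08. Rnaset2b, a lysosomal ribonuclease of another superfamily, was also higher in Tumor-macrophage than in Tumor-AM, by 1.15 ± 0.23 (limma, adjusted p = 0.00158). Its near copy Rnaset2a, with 1.09 ± 0.35, passed in 12 of 16 other settings. Dnase2a, a lysosomal DNase, was the other lower gene and passed in 16 of 16 other settings.

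The 5′ regions of the Ear genes were compared because Ear1 and Ear2 had parallel levels while Ear6 and Ear10 were rare. The 250 bases before the RefSeq start (build GRCm38.p6) are given for Ear2 (chr14:44102404-44102653, + strand), Ear1 (chr14:43819640-43819889, - strand) and Ear10 (chr14:43923597-43923846, - strand). For Ear6 only the bases ahead of its first annotated exon are shown (chr14:51853518-51853698, + strand). Capitals mark bases that differ from Ear2 or have no partner in it.
Ear2: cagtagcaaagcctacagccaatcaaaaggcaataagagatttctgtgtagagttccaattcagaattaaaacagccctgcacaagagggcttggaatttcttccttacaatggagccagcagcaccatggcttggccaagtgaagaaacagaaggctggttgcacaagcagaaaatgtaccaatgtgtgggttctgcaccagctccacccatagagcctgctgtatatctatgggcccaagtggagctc
Ear1: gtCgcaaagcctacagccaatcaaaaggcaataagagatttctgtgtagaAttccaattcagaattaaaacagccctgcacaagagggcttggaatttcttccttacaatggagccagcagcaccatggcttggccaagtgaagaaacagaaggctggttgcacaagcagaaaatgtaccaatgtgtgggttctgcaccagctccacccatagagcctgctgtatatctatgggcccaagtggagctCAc
Ear10: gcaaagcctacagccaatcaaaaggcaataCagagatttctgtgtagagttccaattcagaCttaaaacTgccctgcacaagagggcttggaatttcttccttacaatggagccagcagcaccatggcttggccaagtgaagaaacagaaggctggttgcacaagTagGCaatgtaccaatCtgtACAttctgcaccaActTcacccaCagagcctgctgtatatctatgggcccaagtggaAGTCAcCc
Ear6: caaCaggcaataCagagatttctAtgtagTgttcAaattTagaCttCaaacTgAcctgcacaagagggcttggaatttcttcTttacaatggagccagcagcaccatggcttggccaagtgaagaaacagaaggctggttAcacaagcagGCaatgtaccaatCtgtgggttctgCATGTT

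Over the 250-base windows, Ear1 was 97.6% identical to Ear2 (6 differing alignment columns), Ear10 90.6% (24) and Ear6 77.3% (62, including an inserted stretch). All 4 windows held 1 identical run of 57 bases, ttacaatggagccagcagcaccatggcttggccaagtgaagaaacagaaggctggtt, that begins 145 bases before the start of Ear2. Among 32817 promoter windows of the mouse table, each 250 bases before to 50 after a start, these 4 alone held it on either strand.

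Rnase4 and Ang share 1 start in RefSeq. The 250 bases before it (chr14:51090827-51091076, + strand, GRCm38.p6) are shown because they precede the transcripts of both genes, whose levels differed in pattern.
Rnase4 and Ang: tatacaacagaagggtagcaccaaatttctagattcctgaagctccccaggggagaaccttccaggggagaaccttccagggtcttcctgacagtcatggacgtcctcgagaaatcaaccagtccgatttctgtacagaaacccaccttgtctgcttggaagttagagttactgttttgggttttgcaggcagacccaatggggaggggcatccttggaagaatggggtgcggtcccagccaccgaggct

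This region was 45.5% identical to that of Ear2. Rnase4 has a further listed start within the locus. Exact matches were searched on both strands for 5 motifs, namely those of PU.1, C/EBP, a PPAR/RXR direct repeat, STAT and the TATA box. None occurred in any member window, and the motifs were held by 3.20%, 2.08%, 0.0396%, 8.29% and 13.6% of all promoter windows. That says only that these letters are not in these windows.

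Genes beside the members were chosen by position alone, as the 3 nearest that passed the filter on each side of a member locus, 12 in all. Some are distant: the 3 before the cluster of Ear1, Ear10 and Ear2 (Sftpd, Sftpa1 and Fam213a) lay 2634 to 2805 kb away. Sftpd and Sftpa1 are also listed as lung epithelial markers. The Rnase4 and Ang locus and the Ear6 locus had the same neighbours. Between Tumor-AM and Ctrl-AM none of the 12 passed (limma; 4 had an unadjusted p under 0.05). Between Tumor-macrophage and Tumor-AM 1 was higher and 7 were lower, against 24.2% and 24.4% of all genes, with a median difference of -0.61. With no filter 6 of the 12 were called, against 5281 of all 18402 genes in that fit. Sftpd and Slc39a2, both among the 7, passed the filter through AM samples alone. Slc39a2, a zinc transporter gene 38.2 kb beyond Ear6, had mean FPKM of 32.3, 44.6 and 0.437 in Ctrl-AM, Tumor-AM and Tumor-macrophage. It fell by 4.98 between Tumor-AM and Tumor-macrophage (limma with no filter, adjusted p = 2.54e-07). Ptger2, a prostaglandin E2 receptor gene 885 kb beyond Ear2, fell by 2.04 ± 0.12 (limma, adjusted p = 1.65e-07). Apex1, which lies 164 kb before the Rnase4 and Ang locus and encodes a DNA repair enzyme, fell by 0.64 ± 0.11 (limma, adjusted p = 0.000493), whereas Rnase4 was higher in TAMs. Txndc16 was the neighbour that was higher, by 0.89 ± 0.16 (limma, adjusted p = 0.00109).

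The genes whose pattern over the 9 samples was most like that of the Ear sum were ranked by the root mean square difference of their centred log2(FPKM + 1) values, among 5971 genes. The nearest were Cidec (0.40), Plet1 (0.42), Krt79 (0.51), Krt19 (0.53), Ear3 (0.62) and Siglecf (0.63), followed by Perp, Fabp1, Acaa1b and Car4. These are abundant in the AM groups and at means of at most 7.29 FPKM in TAMs, and the step between AMs and TAMs dominates the measure. Within the AM groups they varied, since Plet1 had a higher mean in Tumor-AM (1521 ± 65.4 FPKM) than in Ctrl-AM (1287 ± 50.9), whereas Krt19 went from 808.1 ± 47.5 to 481.4 ± 52.6. For Rnase4 the nearest were Rtcb (0.050), Zfp263, Syngr2, Efr3a and Oxr1, and for Ang Fam53a (0.15), Apoa1bp, Mad2l1bp, Ap4s1 and Tmc6.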

How the data were processed

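RNA sequencing of 9 samples was used. According to their methods, the authors made cDNA with SMART-Seq HT and Nextera libraries, sequenced 75-base single-end reads, mapped them to mm10 with TopHat2 and Bowtie2, and deposited FPKM per gene symbol (the submitters' processing notes name TopHat2 2.1.1 and Cuffdiff 2.2.1). The annotation, the treatment of multiply mapping reads and the use of strand are not given in the sources used here. The deposited FPKM are not counts, and depth is known only by estimate from the steps of low values: 10400000 to 13100000 reads per sample, which makes 1 FPKM over 1 kb worth 10.4 to 13.1 reads. FPKM summed to between 635560 and 785745 per sample. PCR copies of a molecule are counted as separate reads.

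Values were analysed as log2(FPKM + 1), which understates changes of low genes. Groups were taken from the labels and fitted with limma 3.58.1 in R 4.3.3 (intensity trend, two-sided, Benjamini-Hochberg over 10686 genes with at least 1 FPKM in at least 3 of 9 samples, threshold 0.05), all samples sharing 1 estimate of the spread. The fit was also run on simulated independent samples, with the same spread of a gene in all groups. That does not cover unequal spread between groups or samples that share a mouse. Standard errors of single genes come from the limma fit, and FPKM carry standard deviations (SD) over 3 samples. A p-value sets a difference against the spread between these samples, as limma models it over all genes and the 3 groups. The members and the gene lists were chosen with earlier results of these data known. Named genes were the members, the listed family, partner and marker genes, the neighbours and the nearest patterns; 1 planned partner gene is not reported here. Windows, coding sequences and positions came from GENCODE vM21 (95.7% of symbols matched by name), and promoters from the RefSeq table (6 of 6 members matched). The planned comparison of member proteins was replaced by coding sequences. Alternatives were another pseudocount, no filter, 3 scalings, a fit of the 2 compared groups, a replicate block, each sample left out, 50-base windows, and, added after seeing the data, windows with up to 2 mismatches and the sum of Rnase4 and Ang. Python 3.11.15 and Biopython 1.88 were used for sequences and matplotlib 3.10.9 for plots.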

Additional observations from a re-analysis of the deposited data

How the results depend on the processing

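All differences of the 4 Ear members kept their direction in all 16 settings, and no called difference of another gene turned. The 16 settings of a member include the main fit. The replicate block, a fit of the compared groups alone and leave-outs of the remaining group give the same difference as the main fit. None of these could change a sign, so only the other settings could show a change of direction. Ang, near 0, had the same sign in 12 of 16 settings in each comparison, and Rnase4 between Tumor-AM and Ctrl-AM in 14 of 16. Both counts include the settings that could not change a sign. The summed Ear difference ran from -0.71 (quantile normalization) to -0.46 between Tumor-AM and Ctrl-AM, and left-out samples gave -0.60 to -0.46, -8.02 to -7.08 and -8.54 to -7.59 in the 3 comparisons. Rescaling to TPM shifted the median of all genes by -0.11 between Tumor-AM and Ctrl-AM and by -0.22 between Tumor-macrophage and Ctrl-AM, and the difference of Rnase4 to -0.15, 0.52 and 0.38. A pseudocount of 0.1 moved Ear1 to -10.93, Ear6 to -6.96 and Ear10 to -3.40 between Tumor-macrophage and Tumor-AM, which the pseudocount itself causes at levels near 0.

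Leaving out 1 sample gave 538 to 1254 calls between Tumor-AM and Ctrl-AM (1100 with all), 0 to 1 family genes and 0 to 1 neighbour genes. The family gene was Rnase2b, without the first Tumor-AM sample, and the neighbour call came without the third Tumor-macrophage sample. With no filter, 2 of 6 eosinophil markers tested (Il5ra and Cebpe) were called higher in Tumor-macrophage than in Tumor-AM. Against Ctrl-AM, 1 (Cebpe) was called higher. Of all 18402 genes in that fit, 5281 and 6262 were called in these comparisons, in either direction. Of the 8 partner genes, 1 was called in that fit between Tumor-AM and Ctrl-AM instead of 2, beside 772 of all 18402 genes. Shared windows of 50 bases were 57.4% for Ear1, 41.5% for Ear2, 0.954% for Ear6, 39.9% for Ear10, 7.75% for Rnase4 and 14.5% for Ang. With up to 2 mismatches they were 89.4%, 84.2%, 3.00%, 69.2%, 5.06% and 13.8% in the same order. Samples of equal replicate number had mean correlations of deviations of 0.059, 0.077 and 0.028 in the 3 comparisons. Numbers may not match mice, so this cannot exclude that Tumor-AM and Tumor-macrophage samples were paired by mouse. The replicate block gave 938, 5069 and 5772 calls against 1100, 5191 and 5860. Depth limits Ear10 and the residual Ear1 of TAMs, which rest on few reads.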
